A study of Mus musculus with 6 samples.

Results

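The genes described here are 33 genes of DNA replication and cell division, taken by symbol from the 23390 rows of the deposited count table. All 33 were found, each as 1 row, and all 33 passed the filter on low counts that left 13740 genes for testing. The RNA came from epithelial cells of the small intestine (IEC) of mice on a C57BL/6 background, sorted by flow cytometry as viable CD45- EpCAM+ cells, with 3 libraries in each group. In Vil.Cre Maf.flox mice, Cre recombinase under the villin promoter, which is active in the whole intestinal epithelium from crypt to villus, removes the floxed alleles of the transcription factor gene Maf. These libraries are called Maf-deleted below. Maf.flox mice, called controls, carry the floxed alleles without Cre, and no group carried Cre alone, so an effect of Cre and an effect of Maf loss cannot be told apart. The age of the mice and whether RNA of several mice was pooled are not given in the sources used here, and p-values measure only the spread between these libraries.

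Total counts ran from 17464355 to 24802525 per library. Maf, the deleted gene, was counted 9398, 5615 and 3893 times in controls 1, 2 and 3, and 16, 1 and 1 times after its deletion. Epcam lay between 1922 and 2305 CPM (counts scaled to library size, TMM-normalised) in all libraries, while the leukocyte gene Ptprc, which encodes CD45, lay between 0.101 and 2.29 CPM. By Xist and Y-linked counts the controls were 1 male and 2 females, and the Maf-deleted libraries 2 males and 1 female. The replicates of a group were distinct libraries. Control replicate 3 stood farthest from its group (chi-square of the counts, averaged per gene, 135 and 62.6 to the other controls and 38.4 between those). The median of the genes described and the value of Ccnd1 are therefore also given without that library. Values of other genes shifted too and are not each given. Without control replicate 3 the log2 fold change of Cdc20 went from 0.225 to 0.462 and that of Pcna from -0.107 to -0.035.

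In the small intestine, cells divide in the crypts, where stem cells and their transit-amplifying daughters cycle rapidly, and stop dividing as they move onto the villus. A cycle starts when D-type cyclins with Cdk4 or Cdk6 inactivate the retinoblastoma protein and release E2F factors, which switch on the genes of the replication machinery. Before S phase the MCM helicase is loaded onto origins, a step called licensing, and later cyclin A and cyclin B with Cdk1 carry the cell into mitosis, whose genes are driven by the MuvB complex with B-Myb and FoxM1. Levels of these genes in a sorted bulk sample depend both on the share of cycling cells and on the RNA in each of them, and fewer dividing cells and less RNA per dividing cell cannot be told apart.

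The promoters of the genes are shown first, because the licensing and the mitosis genes carry different control letters, a feature that played no part in choosing them. RefSeq windows of 300 bases, from 250 before to 50 after the RefSeq start (GRCm38.p6), which need not be the start of the gene bounds given later, were on hand for 27 of the 33 genes, and Mcm4, Ccnd1, Ccnd2, Ccna2, Aurkb and Tpx2 are named without one. The letters searched on both strands were TTTCCCGC, TTTCGCGC, TTTGCCGC and TTTGGCGC for E2F, TTTGAA for the cell cycle homology region (CHR) that binds MuvB, and CCAAT for NF-Y, and overlapping matches were counted separately. The first windows shown, Mcm5 and Mcm6, belong to licensing genes with E2F letters, and the others to genes of mitosis and mitotic entry with CHR letters; capitals mark the E2F, CHR and NF-Y letters, and the strand is that of the gene.
Mcm5 (chr8:75109259-75109558, plus strand): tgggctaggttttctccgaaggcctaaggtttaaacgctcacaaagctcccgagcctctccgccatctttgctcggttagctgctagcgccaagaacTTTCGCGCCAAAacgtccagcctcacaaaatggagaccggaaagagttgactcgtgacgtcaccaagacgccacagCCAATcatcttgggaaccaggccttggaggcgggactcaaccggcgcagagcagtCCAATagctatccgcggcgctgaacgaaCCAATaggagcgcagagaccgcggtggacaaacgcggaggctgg
Mcm6 (chr1:128359656-128359955, minus strand): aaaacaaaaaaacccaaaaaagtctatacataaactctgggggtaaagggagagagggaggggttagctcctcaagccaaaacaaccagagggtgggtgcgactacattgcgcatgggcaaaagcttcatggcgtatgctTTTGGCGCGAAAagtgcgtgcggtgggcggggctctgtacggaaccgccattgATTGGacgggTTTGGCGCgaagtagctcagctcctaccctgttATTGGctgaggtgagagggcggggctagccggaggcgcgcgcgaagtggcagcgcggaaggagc
Cdk1 (chr10:69352863-69353162, minus strand): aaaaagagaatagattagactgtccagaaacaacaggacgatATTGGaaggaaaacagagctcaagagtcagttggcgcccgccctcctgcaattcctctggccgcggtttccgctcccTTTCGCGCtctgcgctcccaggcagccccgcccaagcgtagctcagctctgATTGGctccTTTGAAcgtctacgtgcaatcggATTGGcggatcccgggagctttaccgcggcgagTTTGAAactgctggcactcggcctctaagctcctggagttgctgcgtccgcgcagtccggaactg
Ccnb2 (chr9:70421505-70421804, minus strand): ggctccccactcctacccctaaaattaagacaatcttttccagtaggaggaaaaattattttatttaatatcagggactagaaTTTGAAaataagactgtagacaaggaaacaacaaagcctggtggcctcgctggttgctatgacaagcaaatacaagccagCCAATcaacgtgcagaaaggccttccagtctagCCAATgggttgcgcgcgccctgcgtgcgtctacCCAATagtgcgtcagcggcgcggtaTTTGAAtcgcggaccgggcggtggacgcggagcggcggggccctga
Mki67 (chr7:135716330-135716629, minus strand): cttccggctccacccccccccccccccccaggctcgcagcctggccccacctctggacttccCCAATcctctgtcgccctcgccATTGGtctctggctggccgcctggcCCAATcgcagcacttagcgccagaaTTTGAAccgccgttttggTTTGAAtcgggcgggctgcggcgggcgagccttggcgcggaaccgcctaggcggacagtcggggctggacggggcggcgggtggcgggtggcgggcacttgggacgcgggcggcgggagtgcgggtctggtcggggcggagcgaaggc
Cdc20 (chr4:118437294-118437593, minus strand): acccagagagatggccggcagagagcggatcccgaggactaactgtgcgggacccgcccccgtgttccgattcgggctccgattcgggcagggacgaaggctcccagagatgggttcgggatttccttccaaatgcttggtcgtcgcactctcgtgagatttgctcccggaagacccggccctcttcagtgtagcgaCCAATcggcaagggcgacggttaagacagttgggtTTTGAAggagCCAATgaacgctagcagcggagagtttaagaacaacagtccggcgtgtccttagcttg

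A gene could have more than 1 window (29 windows for the 27 genes), and letters in any of its windows counted for the gene. E2F letters stood in the windows of 4 of 5 licensing genes (Mcm3, Mcm5, Mcm6 and Mcm7) and of Cdk1 and Cdk2, in 22.2% of the 27 genes against 2.6% of the 27025 genes with a window. Mcm7 also had a window without them, so that 4 of 6 licensing windows held E2F letters. None of the 9 mitosis genes with a window held them. The 4 S phase genes (Pcna, Tyms, Rrm1 and Rrm2) held neither E2F nor CHR letters. CHR letters stood in 7 of 9 mitosis genes, namely Mki67, Top2a, Aurka, Plk1, Cdc20, Kif11 and Cenpa, and in 1 of 5 licensing genes, Mcm2, in 37% of the 27 genes against 20.2% of all genes. Ccnb2, Cdk1, Mki67 and Top2a held 2 CHR matches each. CCAAT letters were in 77.8% of the 27 genes against 41.1% of all, with 6 matches in Top2a. Cdk1 was the single gene of these 27 with all of these kinds of letters. The letters TGCTGAC, the core that Maf proteins bind, were found in 1 of the 27 genes (Bub1), or 3.7% against 5.28% of all genes, and windows of this length say nothing of binding elsewhere.

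Maf-deleted and control libraries were compared for the levels of the machinery of cell division. No gene of the 33 passed an adjusted p of 0.05, where 0.546% of all genes tested did (75 of 13740 by edgeR's quasi-likelihood F test, adjusted over all of them; 0.189% higher and 0.357% lower). None passed 0.1 either, where 2.71% of all genes did. Limma-voom called 0 of the 33, beside 0.247% of all genes, and DESeq2 called Ccnd1 alone, 1 of 33 beside 5.09% of the genes to which it gave an adjusted p. At an unadjusted p under 0.05 by edgeR, cyclin D1 (Ccnd1) was higher and Cdk6 lower, 1 gene each way of 33, where 16.4% of all genes had such a p, 7.11% higher and 9.25% lower. The median log2 fold change of the 33 was 0.10, beside -0.01 over all genes tested, with 21 genes above 0 and 12 below (48.4% and 51.6% over all genes). That median was -0.02 without control replicate 1, with 15 genes above 0 and 18 below. The median was 0.25 without control replicate 3, with 29 genes above 0 and 4 below. It was 0.21 without Maf-deleted replicate 2 and 0.002 without Maf-deleted replicate 3. Its size thus shifted with single libraries, and its sign changed only without control replicate 1, at a value near 0.

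The precision of these values can be read from their 95% intervals, which for 32 of the 33 genes lay wholly within a 2-fold change in either direction (1 on the log2 scale) and excluded 0 for Ccnd1 and Cdk6. In 31 of 33 genes the highest control library exceeded the lowest by a larger factor than the one that separated the 2 group means, and in 30 of 33 the same held among the Maf-deleted libraries. The groups did not overlap for 1 of 33 genes, Cdkn1b, lower in the Maf-deleted group, where 20.6% of all genes tested had groups that did not overlap (10.1% higher and 10.5% lower). The lowest count behind any of these values was 110, for Ccne1 in control replicate 1, for which counting error alone gives 90.4 to 133 (exact Poisson, 95%).

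**Figure D1:**
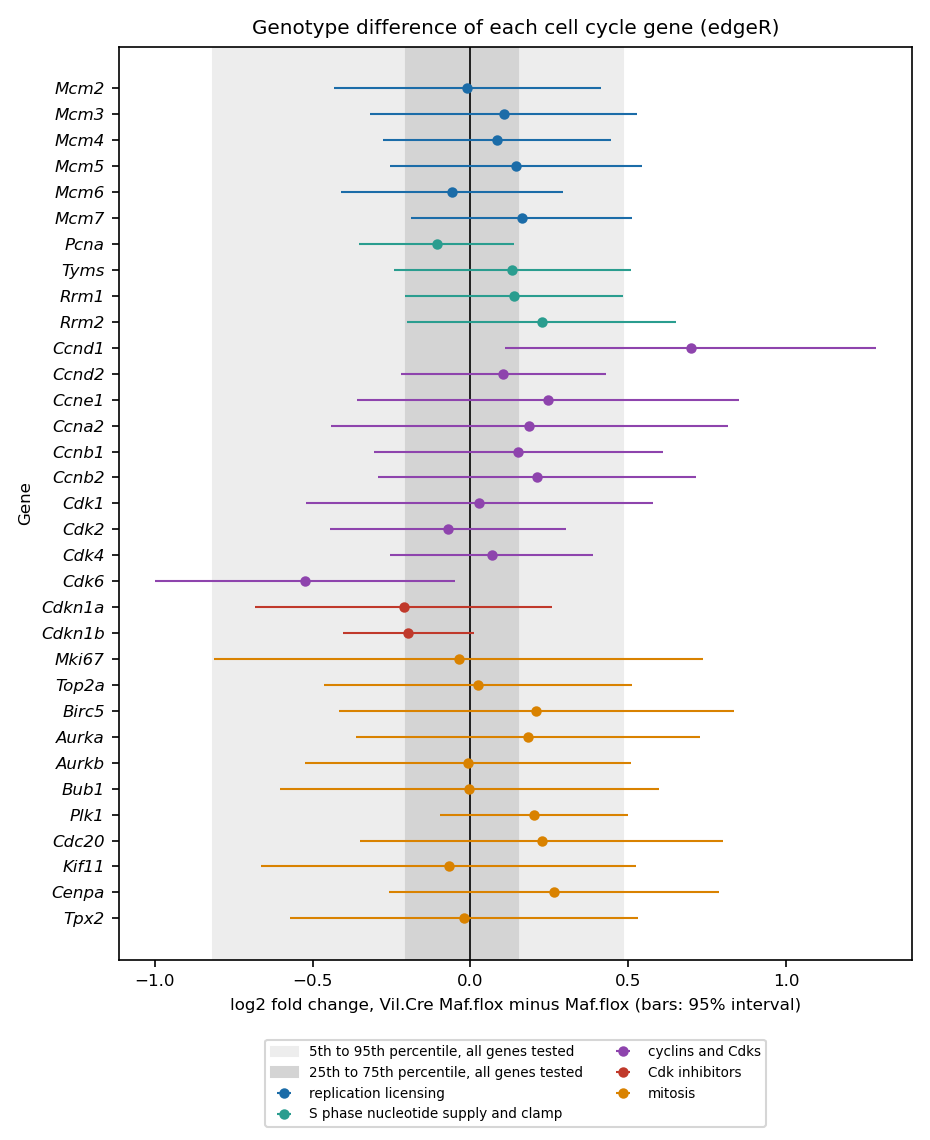
Log2 fold change of each of the 33 genes, Vil.Cre Maf.flox minus Maf.flox (points, coloured by role), with 95% intervals (bars), over the 25th to 75th percentile (dark grey) and 5th to 95th percentile (light grey) of all 13740 genes tested. Only the bars of Ccnd1 and Cdk6 leave 0 outside, on opposite sides, and that of Ccnd1 is the one that extends beyond 1.

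The licensing genes Mcm2, Mcm3, Mcm4, Mcm5, Mcm6 and Mcm7 encode the subunits of the hexameric helicase that opens DNA at origins. Their log2 fold changes lay between -0.06 (Mcm6) and 0.16 (Mcm7), and none had an unadjusted p under 0.05. Mcm5 (GRCm38 chromosome 8, 75109569 to 75128439) had 66.3, 79.9 and 106 CPM in control replicates 1, 2 and 3 and 97.8, 79.5 and 101 CPM in Maf-deleted replicates 1, 2 and 3. The groups overlapped throughout, and the control group held both the lowest and the highest library. Mcm7, of whose exons 7.3% overlap Ap4m1 on the other strand, had 77.4, 77.8 and 105 CPM against 100.3, 81.8 and 109 CPM, the largest difference of the 6 (log2 fold change 0.16, 95% interval -0.19 to 0.51). Mcm6 had 91.4, 105 and 134 CPM against 111, 90.9 and 115 CPM. Mcm2, Mcm3 and Mcm4 ran from 52.8 to 84.6, 43.1 to 72.1 and 40.1 to 58.1 CPM in controls and from 56.2 to 77.6, 52.1 to 65.3 and 44.4 to 58.5 CPM in Maf-deleted libraries. All 6 subunits were lower in control replicate 1 than in control replicate 3, by a factor of up to 1.67 (Mcm3).

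The S phase genes supply nucleotides or clamp the polymerase to DNA. Rrm2, the regulated subunit of ribonucleotide reductase, which makes deoxyribonucleotides, had 23, 23.7 and 30.8 CPM in controls and 31.4, 22.7 and 36.3 CPM in Maf-deleted libraries. Its partner subunit Rrm1 had 68.3, 81.2 and 91.9 CPM against 94, 72.2 and 99.2 CPM, and Tyms, which makes thymidylate, had 27, 30.9 and 37 CPM against 36, 27.7 and 40.2 CPM. For all 3 enzymes the Maf-deleted libraries 1 and 3 lay above the control mean while library 2 lay below it, and the log2 fold changes were 0.23, 0.14 and 0.13 with 95% intervals that crossed 0. Pcna, the sliding clamp, stood at 114, 128 and 139.7 CPM against 119.6, 110.3 and 125 CPM (log2 fold change -0.11, SE 0.108). Its highest library was 1.27 times the lowest, the smallest factor of the 33 after that of Cdkn1b. Pcna and Tyms have processed pseudogenes in the annotation, with which reads can be shared.

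Among cyclins and their kinases, Ccnd1 showed the largest difference of the 33 genes. It encodes cyclin D1, the G1 cyclin that answers growth signals (GRCm38 chromosome 7, 144929931 to 144939925, minus strand). Its level was 101, 126 and 180.3 CPM in control replicates 1, 2 and 3 and 249, 157 and 254 CPM in Maf-deleted replicates 1, 2 and 3. Maf-deleted replicates 1 and 3 stood above every control, while replicate 2 lay between control replicates 2 and 3, so that the groups overlapped. The means were 136 ± 40.4 and 220.0 ± 54.2 CPM (SD, n = 3 each), with a log2 fold change of 0.70 (SE 0.252, 95% interval 0.11 to 1.28). The difference did not pass over all genes (edgeR's quasi-likelihood test, adjusted p = 0.233). DESeq2 gave 0.71 and an adjusted p of 0.0477, and edgeR without control replicate 3 gave 0.96 and an adjusted p of 0.0518, with a range of 0.0477 to 0.62 over all alternatives. The difference was 0.96 within males and 0.75 within females as a difference in mean log2 CPM, over 1 control and 2 Maf-deleted males and over 2 control females and 1 Maf-deleted female. In the annotation 23.4% of the Ccnd1 exons overlap a gene on the other strand, Oraov1 in the deposited table, and strand use in counting is not given in the sources used here. Oraov1 itself stood between 18.7 and 20.4 CPM in all 6 libraries.

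Ccnd2, the related D-type cyclin, was more abundant per length than Ccnd1 in each control library and moved less between libraries. It had 290.1, 330.1 and 365 CPM against 297, 364 and 398 CPM (log2 fold change 0.10, SE 0.143). On the FPKM scale of the deposited table, which divides by gene length, the ratio of Ccnd1 to Ccnd2 was 0.699, 0.76 and 0.987 in the controls and 1.68, 0.866 and 1.27 in the Maf-deleted libraries. Ccnd1 was thus below Ccnd2 in all 3 controls and above it in 2 of 3 Maf-deleted libraries, with replicate 2 among the controls. This ratio and the next were chosen after counts had been seen and are given as descriptions.

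Cdk6, a kinase partner of the D-type cyclins, had the lowest fold change of the 33 (GRCm38 chromosome 5, 3341485 to 3531008). It stood at 36.6, 42.9 and 46.1 CPM in controls and at 24.5, 23.2 and 39.5 CPM in Maf-deleted libraries. Maf-deleted replicates 1 and 2 were below all controls and replicate 3 was between them. The log2 fold change was -0.52 (SE 0.206, 95% interval -0.998 to -0.048, adjusted p = 0.261 by edgeR's quasi-likelihood test), and the adjusted p lay between 0.0692 and 0.688 over all alternatives. Without Maf-deleted replicate 3 the value was -0.81 and without replicate 2 it was -0.37. Within males it was -0.62 and within females -0.17, as differences in mean log2 CPM. Cdk4, the other kinase partner, had 113, 134 and 163 CPM against 148, 129.8 and 151 CPM (log2 fold change 0.07). Per length, Cdk4 exceeded Cdk6 by 13.3, 13.5 and 15.2 times in the controls and by 26.1, 24.1 and 16.5 times in the Maf-deleted libraries. This ratio did not overlap between groups, where 20.6% of all single genes tested did not either. Other FPKM ratios taken overlapped. Rrm1 to Rrm2 was 0.746, 0.862 and 0.751 in controls and 0.754, 0.799 and 0.687 in Maf-deleted libraries. Ccnb1 to Ccne1 was 4.8, 4.41 and 3.63 against 4.06, 3.69 and 3.89. In all, 19.7% of the Cdk4 exons overlap Tspan31 on the other strand.

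**Figure D2:**
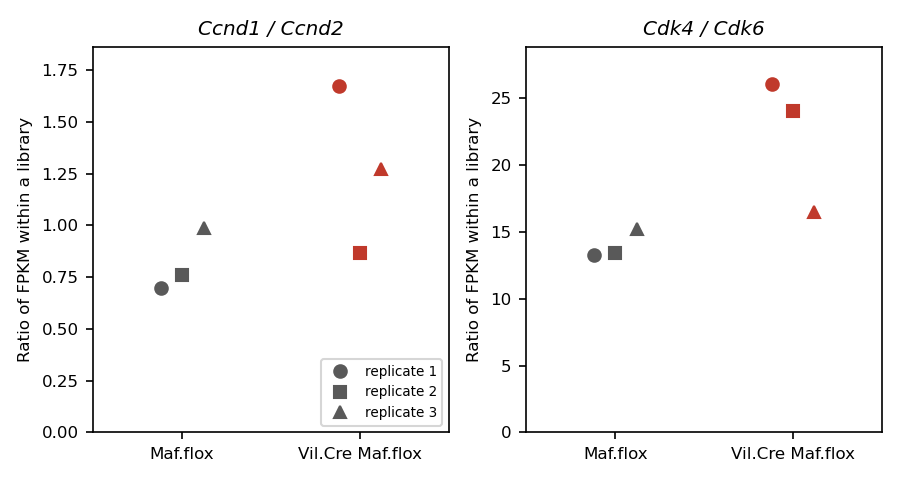
Ratio of deposited FPKM within each library (points, 1 per library, shape by replicate number), Ccnd1 over Ccnd2 on the left and Cdk4 over Cdk6 on the right, by genotype. The Cdk4 to Cdk6 ratio runs from 13.3 to 15.2 in Maf.flox and from 16.5 to 26.1 in Vil.Cre Maf.flox, while the Ccnd1 to Ccnd2 ratio overlaps.

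The later cyclins and kinases differed more between libraries of a group than between the group means. Ccne1, cyclin E1 of the passage into S phase, had the lowest level of the 33 genes in CPM, with 4.62, 6.92 and 9.25 CPM in controls and 8.32, 6.58 and 9.67 CPM in Maf-deleted libraries. Ccna2, the S phase and mitotic cyclin A2, had 53.4, 75.5 and 93.3 CPM against 80.5, 60 and 112 CPM. Ccnb2, a mitotic cyclin, had 38.1, 47.3 and 61.1 CPM against 54.7, 43.7 and 70.9 CPM. In these 3 genes the lowest library was control replicate 1 and the highest Maf-deleted replicate 3, and all other libraries lay between. Ccnb1, the other B-type cyclin, ran from 35.2 to 53.1 CPM and from 38.4 to 59.6 CPM. Cdk1, the kinase that starts mitosis, had 29.7, 42.3 and 53.2 CPM against 44, 32.4 and 51 CPM, with group means of 41.7 ± 11.8 and 42.5 ± 9.41 CPM (SD, n = 3 each). Cdk2, the partner of cyclins E and A, ran from 22.7 to 34.9 CPM and from 23.7 to 28.1 CPM. The log2 fold changes of these 6 genes lay between -0.07 (Cdk2) and 0.25 (Ccne1). Ccnb1 and Ccnb2 have processed pseudogenes, and 12.5% of the Ccna2 exons overlap Exosc9 on the other strand.

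The Cdk inhibitors hold cells out of the cycle, and both had a value below 0. Cdkn1b, which encodes p27, had 68.8, 70.4 and 75.8 CPM in controls and 61.9, 60.4 and 65.2 CPM in Maf-deleted libraries. All 3 Maf-deleted libraries were below all 3 controls, by a small step: the means were 71.7 ± 3.65 and 62.5 ± 2.45 CPM (SD, n = 3 each), with a log2 fold change of -0.20 (SE 0.0911, adjusted p = 0.33 by edgeR's quasi-likelihood test). Its value lay between -0.229 and -0.155 under the 14 alternative fits. Cdkn1a, which encodes p21, the inhibitor induced by p53, had 301, 272 and 184 CPM against 213, 262 and 179 CPM (log2 fold change -0.21, SE 0.205). Cdkn1a ran opposite to the cycling genes among the libraries, with its highest level in control replicate 1 and its lowest in Maf-deleted replicate 3.

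The 11 mitosis genes had log2 fold changes between -0.07 (Kif11) and 0.27 (Cenpa), a median of 0.03, and none with an unadjusted p under 0.05. Mki67, which encodes the proliferation marker Ki-67, had 110.4, 163 and 190.1 CPM in controls and 121, 104 and 226 CPM in Maf-deleted libraries. Its Maf-deleted libraries spanned a 2.17-fold range that took in all 3 controls, and the 95% interval of its log2 fold change, -0.81 to 0.74, was the widest of the 33. Top2a, the topoisomerase that untangles chromosomes, had 155, 198 and 243 CPM against 193, 158 and 255 CPM. The group means of Top2a were 199 ± 43.8 and 202 ± 49.4 CPM (SD, n = 3 each).

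Of the kinases of mitosis, Plk1 had 54.3, 61.5 and 75.2 CPM against 76.9, 67.6 and 75.1 CPM (log2 fold change 0.20, SE 0.131, adjusted p = 0.491 by edgeR's quasi-likelihood test). It had the smallest p of the mitosis genes and was the single one whose highest library was Maf-deleted replicate 1. Aurka, the spindle pole kinase, ran from 20.2 to 35.5 CPM in controls and from 24.4 to 38.2 CPM in Maf-deleted libraries, and Aurkb, the kinase of the chromosomal passenger complex, from 25.9 to 43.8 and from 27.6 to 43 CPM. Birc5, survivin of that same complex, ran from 26.8 to 49.7 and from 32.2 to 56.6 CPM, and the checkpoint kinase Bub1 from 12.3 to 20.1 and from 11.4 to 21.7 CPM. Neither group stood apart for any of these genes. Cdc20, which activates the anaphase-promoting complex, had 54.4, 75.8 and 99.8 CPM against 91.1, 67.8 and 109.7 CPM. Cenpa, the centromeric histone, had 25.9, 35.5 and 44.6 CPM against 43.3, 32.6 and 51.2 CPM, with a log2 fold change of 0.27 (SE 0.226). In both, Maf-deleted replicate 2 was below the second control and the other Maf-deleted libraries were above it. The spindle motor Kif11 ran from 45.8 to 72.6 and from 37.8 to 72.1 CPM, and the spindle assembly factor Tpx2 from 34.9 to 55.5 and from 32.6 to 57.4 CPM.

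**Figure D3:**
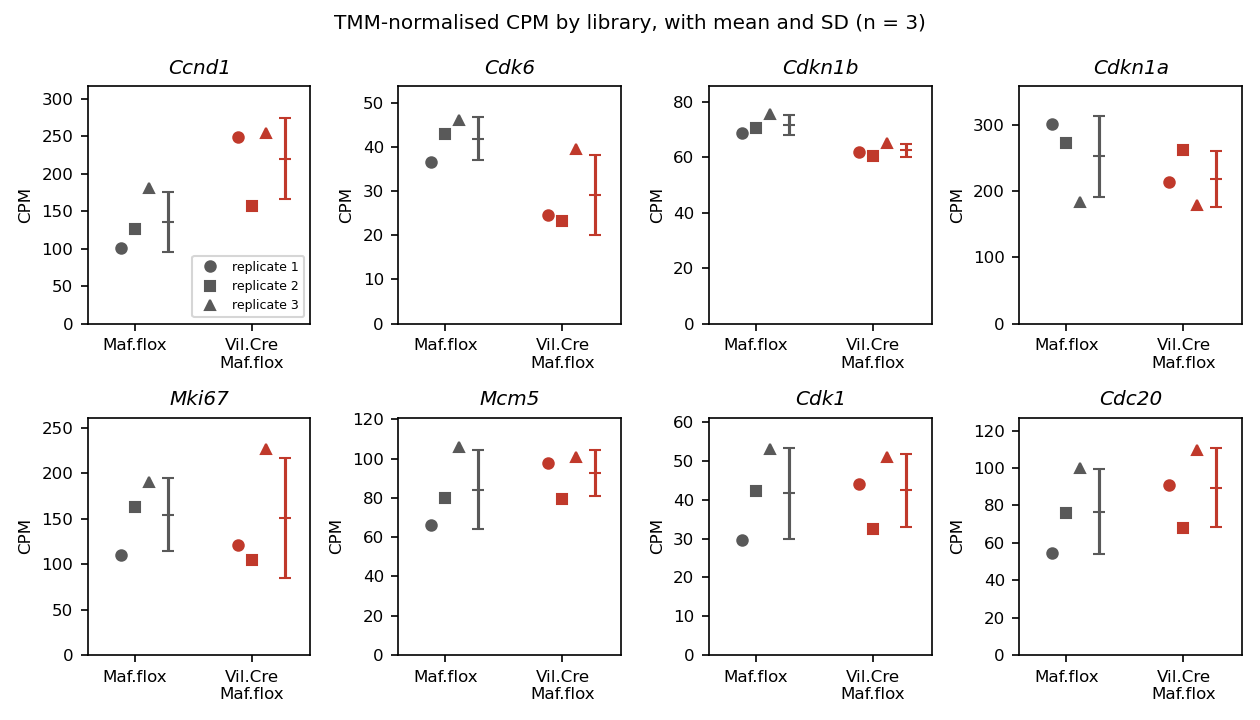
TMM-normalised CPM in each of the 6 libraries (points, shape by replicate number) with the mean and SD of each group (bars, n = 3), for 8 genes and on axes that start at 0. Cdkn1b is the one panel without overlap between groups, and the spread within a group exceeds the step between groups for Mki67, Mcm5, Cdk1 and Cdc20.

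Across the libraries the genes moved as a block. Control replicate 3 had the highest level of its group in 32 of 33 genes and control replicate 1 the lowest in 32 of 33, with Cdkn1a as the exception. Among the Maf-deleted libraries replicate 3 was highest in 31 of 33 genes and replicate 2 lowest in 31 of 33. Over all 6 libraries, Maf-deleted replicate 3 held the highest level for 19 genes and control replicate 3 for 12, and control replicate 1 held the lowest for 23 and Maf-deleted replicate 2 for 9. The highest library exceeded the lowest by a factor between 1.25 (Cdkn1b) and 2.503 (Ccnd1), and by 2 or more in 6 genes. The median over the 33 genes of the log2 CPM relative to each gene's own mean over 6 libraries was -0.34, -0.03 and 0.28 in control replicates 1, 2 and 3 and 0.09, -0.24 and 0.31 in Maf-deleted replicates 1, 2 and 3. The 2 sets of values interleave.

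**Figure D4:**
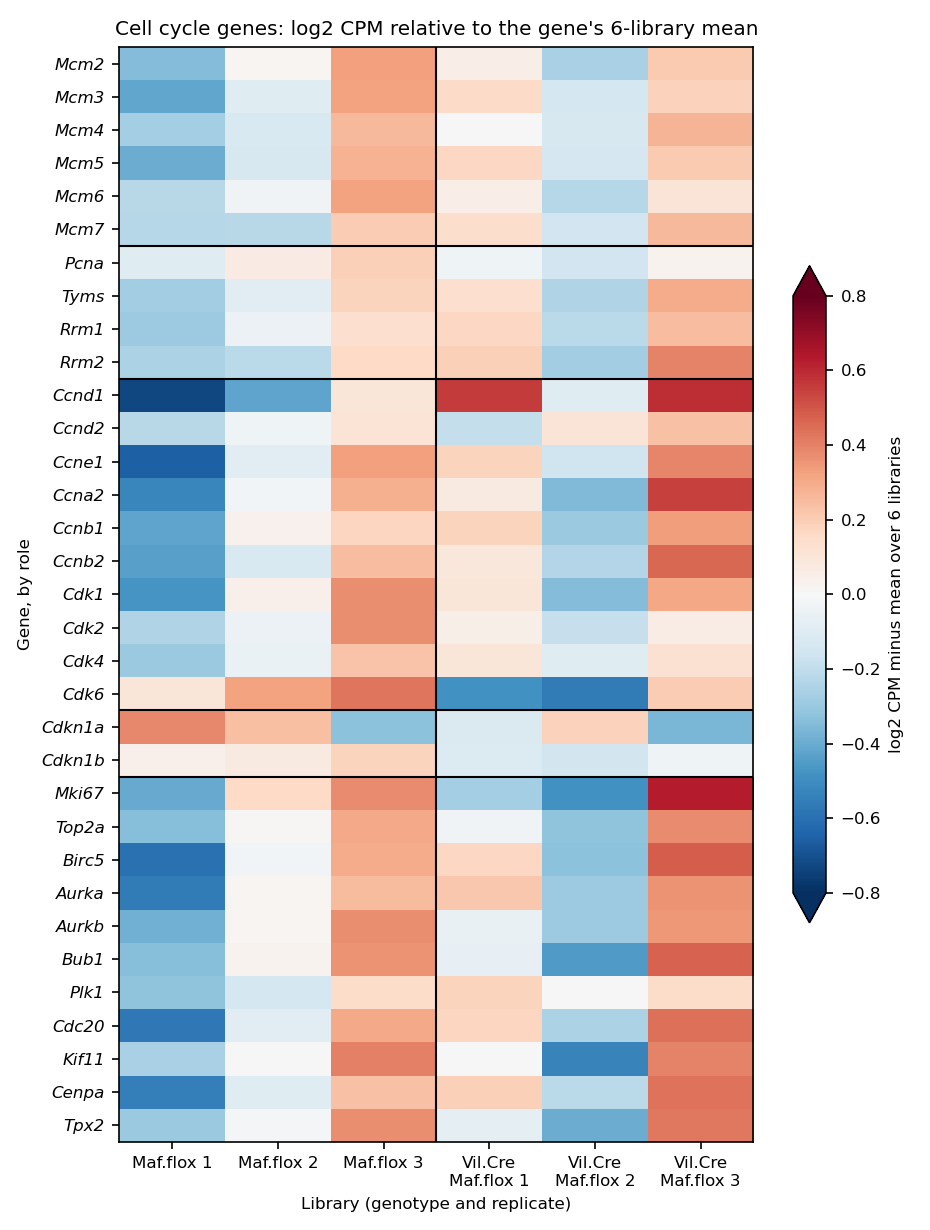
Log2 CPM of each of the 33 genes (rows, grouped by role) in each of the 6 libraries (columns), relative to the gene's mean over the 6 libraries; red is above and blue below that mean. The columns of Maf.flox replicate 1 and Vil.Cre Maf.flox replicate 2 are mostly blue and those of both replicate 3 libraries mostly red, with Cdkn1a and Cdk6 standing apart.

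Mitosis genes spread somewhat more over the libraries than licensing genes. The role medians ran from -0.39 to 0.42 for mitosis, from -0.43 to 0.32 for cyclins and kinases, from -0.27 to 0.27 for S phase genes and from -0.31 to 0.30 for licensing. The summed level of the mitosis genes over that of the licensing genes, both in CPM, was 1.53, 1.75 and 1.66 in controls and 1.52, 1.47 and 1.91 in Maf-deleted libraries, so that it overlapped between groups. Within males the median difference of the 33 genes between genotypes was 0.23 and within females 0.20, as differences in mean log2 CPM over 1 and 2 libraries, beside 0.10 for all libraries together. With sex as a term in edgeR's fit, chosen after the data had been seen, the median was 0.23, 29 of the 33 genes were above 0, 7 were higher and 1 lower at an unadjusted p under 0.05 (7.05% and 10.8% of all genes in that fit), and none passed over all genes.

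Markers of the cells in the sort moved with these libraries to different degrees. Over 10 stem cell genes, all 10 in the table, the summed level ran from 2522 to 3508 CPM in controls and from 2263 to 3019 CPM in Maf-deleted libraries, led by Olfm4, Slc12a2, Axin2 and Ephb2. Their median deviation was lowest in Maf-deleted replicate 2 (-0.30) and highest in control replicate 3 (0.39). Their median log2 fold change was -0.21, with 9 of 10 below 0 (51.6% of all genes tested) and none called (0.546% of all). Axin2 (-0.62) was lower without overlap between groups, 1 gene of 10, where 10.5% of all genes tested were. Over 8 Paneth cell genes, led by Defa24, Lyz1, Defa21 and Defa22, the sum ran from 5827 to 37170 CPM and from 7933 to 11540 CPM, with control replicate 3 highest by far. Over 10 enterocyte genes, led by Apoa1, Anpep, Fabp2 and Sis, it ran from 11390 to 24140 CPM in controls and from 5812 to 9703 CPM in Maf-deleted libraries without overlap. Of these 10 genes, 6 were lower without overlap between groups (10.5% of all genes tested) and 2 were called lower (0.357% of all). Their log2 fold changes ran from -4.855 to -0.103. The enterocyte sum was lowest within each group in replicate 3, where the cycling genes were highest. Over 11 leukocyte genes in the table of 12 listed, the sum was 20.8 to 28.7 CPM and 22 to 32.9 CPM. Lcp1, Igha, Cd68 and Jchain were highest, with Lcp1 alone at 12.9 to 22.7 CPM over the 6 libraries, and none was at 0 in every library. Whether these marker differences come from cell make-up or from RNA per cell was not tested, nor was their part in the levels of the 33 genes.

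**Figure D5:**
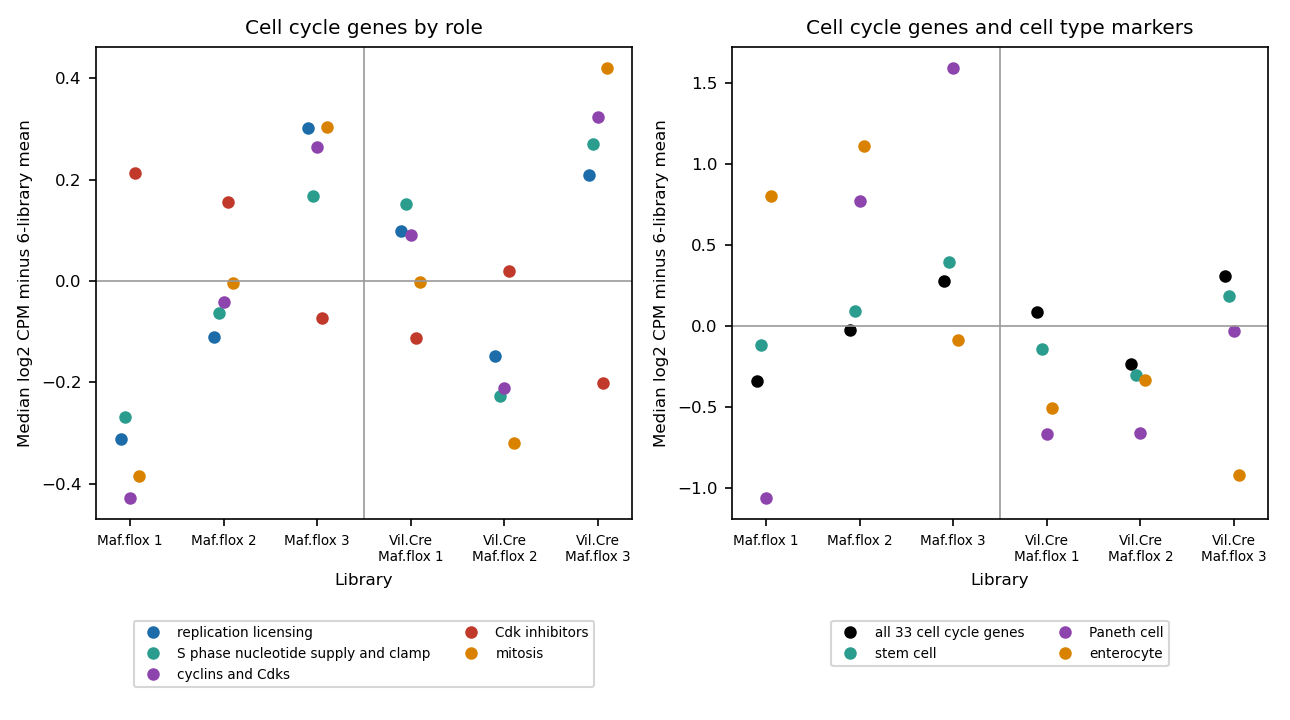
Median log2 CPM relative to each gene's 6-library mean, by library, for the 5 role groups of cell cycle genes (left) and for all 33 genes with stem cell, Paneth cell and enterocyte markers (right); the vertical line separates the genotypes. The cycling groups are lowest in replicate 1 of Maf.flox or replicate 2 of Vil.Cre Maf.flox and highest in the replicate 3 libraries. The median of the 2 inhibitors is highest in replicate 1 of Maf.flox, where Cdkn1a is high and Cdkn1b is not. The median of the enterocyte markers, though not each marker, is lower in every Vil.Cre Maf.flox library than in any Maf.flox library.

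The rest of the cycle machinery, 129 further genes in 5 lists, gave a similar result. None passed over all genes, 1 was higher and 3 lower at an unadjusted p under 0.05 by edgeR (7.11% and 9.25% of all genes tested), and the median log2 fold change was 0.03. The 20 genes of origin recognition and firing had a median of 0.03 and the 28 genes of fork polymerases and nucleotide enzymes one of 0.04. The 42 genes of kinetochore, spindle and cytokinesis also had a median of 0.03, with values from -0.15 to 0.39. Named by smallest p, the first list gave Orc6 (-0.31), Gins1 (0.30), Orc2 (0.20) and Orc1 (0.25). The second gave Rpa3 (0.25), Pold3 (0.20) and Prim1 (-0.24), and the spindle list Kif22 (0.28), Tacc3 (0.27), Cenpn (0.39) and Cdca3 (0.25). The groups overlapped for each of these 11 genes. The 18 other cyclins, phosphatases and Cdk regulators had a median of 0.01, with Cdkn1c at -0.75, Wee1 at -0.32, Cdkn2c at -0.17 and Cdkn2d at -0.14.

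The 21 genes of E2F, Rb and other cell cycle transcription factors, such as Foxm1, Mybl2 and Myc, had a median of 0.00 and none called. By edgeR 1 was higher and 2 lower at an unadjusted p under 0.05 (16.4% of all genes tested had such a p). Groups did not overlap in 5 of 21, 2 higher and 3 lower, near the 20.6% of all genes. E2f2, an activator E2F, had 92.1, 77 and 87.9 CPM in controls and 150.3, 129 and 109 CPM in Maf-deleted libraries. All 3 Maf-deleted libraries were above all 3 controls (log2 fold change 0.60, SE 0.135, adjusted p = 0.0874 by edgeR's quasi-likelihood test). E2f5, a repressor E2F that works with the pocket proteins, had 21.3, 23.2 and 21.5 CPM against 13.1, 15.7 and 16.3 CPM, with all 3 Maf-deleted libraries lower (-0.55, SE 0.127, adjusted p = 0.0909). Rbl2, the pocket protein p130 of resting cells, had 32.6, 33 and 33.6 CPM against 27, 29 and 28.8 CPM (-0.23, SE 0.0934, adjusted p = 0.274), and E2f3 had 22.6, 19.7 and 20.3 CPM against 25.4, 24.3 and 23.4 CPM (0.22, SE 0.11, adjusted p = 0.36). These 4 genes were named for the smallest p of the 21, a choice that favours groups without overlap. The groups overlapped for none of the 4, with 2 higher and 2 lower in the Maf-deleted libraries.

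On the FPKM scale, Cdkn1a had the highest level of the 33 genes in both groups (70.7 ± 17.4 FPKM in controls and 61.4 ± 11.5 in Maf-deleted libraries, SD, n = 3 each), followed by Pcna (52.8 ± 4.89 and 49.4 ± 3.24). Cdk4 and Cdc20 came next among the controls, at 41.8 ± 7.37 and 40.8 ± 11.9 FPKM, which did not differ beyond their spread, and then Ccnd2 at 34.7 ± 3.73 FPKM. Ccnd1 was at 28.7 ± 8.41 FPKM in controls, where its mean lay beside that of Plk1 at 28.8 ± 4.67 and below that of Ccnd2. In Maf-deleted libraries it was at 46.9 ± 11.7 FPKM, where it lay among Cdc20, Pcna and Cdk4. The MCM subunits ranged from 9.78 (Mcm2) to 23.4 (Mcm6) FPKM in controls. The lowest levels were those of Ccne1 (2.59 ± 0.85 and 3.09 ± 0.596 FPKM) and Cdk6 (2.98 ± 0.32 and 2.08 ± 0.656 FPKM), which exchanged places between the groups within their spread.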

How the data were processed

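The deposited table holds, for each gene, whole-number counts and FPKM in 6 libraries. The submitters' processing notes name featureCounts 1.5.0-p3, HISAT2 2.0.5, DESeq2 and the build GRCm38 (mm10). The authors deposited raw counts. Their deposited FPKM scale the count by gene length and library size, and served to compare levels between genes. Counts were tested with edgeR 4.0.16 (R 4.3.3): filterByExpr with least count 10, TMM scaling, robust quasi-likelihood F test of genotype, Benjamini-Hochberg adjustment over 13740 genes. Intervals use the test's t quantiles, and log2 CPM a prior count of 2. Limma 3.58.1 (voom), DESeq2 1.42.0, other scaling and filters, a block for replicate number and leaving out 1 library at a time were alternatives, and a sex term was added after seeing the data. The fits were tested on simulated counts. Gene bounds of all 33 genes matched GENCODE M21, and promoter sequences are RefSeq's (GRCm38.p6). The 33 genes and the lists were chosen with earlier results of these data known. Named genes are the 33, the 4 smallest p of each further list, the 4 highest markers of each marker list, and Maf. A result under this rule is not reported here. A p53 target list is in the closing section. Of the marker lists, goblet, tuft, enteroendocrine, stromal and erythroid genes are given there as sums.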

Additional observations from a re-analysis of the deposited data

How the results depend on the processing

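The number of the 33 genes called stayed at 0 under each alternative run except DESeq2, which called 1 (Ccnd1, log2 fold change 0.709, adjusted p = 0.0477). Their median lay between 0.096 and 0.228 in fits on all libraries and between -0.015 and 0.245 with 1 library left out. Against 75 genes called in all, there were 365 with no filter, 742 with DESeq2, 34 with limma-voom, 440 with the replicate block, 38 with sex as a term (chosen after seeing the data), 372 at an adjusted p under 0.1 and 8 to 701 with 1 library left out (8 without Vil.Cre Maf.flox replicate 3, 701 without Maf.flox replicate 3). The replicate block called 0 of the 33. Correlations between libraries that share a number, over deviations from the group mean, were 0.092, -0.026 and 0.269, too low to treat the numbers as pairs, and control 1 correlated best with Maf-deleted library 2 (0.331).

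Some genes took the other sign, none of them called. Most had values near 0, but with 1 library left out larger ones such as Ccna2 (0.186) and Aurka (0.183) did so too. Under upper quartile scaling Mcm2 was 0.013, Aurkb 0.015, Bub1 0.022 and Tpx2 0.005, and under RLE scaling Bub1 was 0.004. With no filter these were 0.011, 0.013, 0.017 and 0.001. DESeq2 gave 0.002, 0.003 and 0.007 and limma-voom 0.003, 0.016 and 0.011 for Mcm2, Aurkb and Bub1, and the replicate block 0.002 for Mcm2. With sex as a term Mcm2 was 0.14, Mcm6 0.043, Cdk2 0.028, Mki67 0.194, Aurkb 0.178, Bub1 0.185, Kif11 0.099 and Tpx2 0.152. With 1 library left out the values ran as follows: Mcm2 -0.156 to 0.172, Mcm3 -0.045 to 0.324, Mcm4 -0.036 to 0.254, Mcm6 -0.165 to 0.106, Ccna2 -0.074 to 0.396, Cdk1 -0.156 to 0.244, Cdk2 -0.19 to 0.123, Cdk4 -0.041 to 0.212, Mki67 -0.456 to 0.185, Top2a -0.179 to 0.196, Aurka -0.005 to 0.371, Aurkb -0.206 to 0.199, Bub1 -0.289 to 0.205, Kif11 -0.316 to 0.155, Tpx2 -0.271 to 0.179. The cause was not tested. Depth limits Ccne1 most: its lowest count was 110, with an exact 95% Poisson interval of 90.4 to 133.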

Other observations

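The p53 pathway, which halts the cycle through Cdkn1a, was read from 16 target genes, of which 15 were tested. Their median log2 fold change was -0.38, with 11 of 15 below 0 and none called by edgeR over all genes. At an unadjusted p under 0.05, 6 of 15 were lower and 0 higher, where 9.25% and 7.11% of all genes tested were. Pmaip1, which encodes the death-promoting protein Noxa, had 62.9, 75.4 and 53.2 CPM in Maf.flox and 24, 39.1 and 32 CPM in Vil.Cre Maf.flox (log2 fold change -1.01, SE 0.193, adjusted p = 0.0708 by edgeR's quasi-likelihood test). Mdm2, the ubiquitin ligase that removes p53, had 45.2, 45.5 and 38.4 CPM against 32.5, 34.2 and 32.4 CPM (-0.38, SE 0.103, adjusted p = 0.128). Trp53inp1 had a value of -0.74 and the antiproliferative gene Btg2, also an immediate early gene, one of -0.80. In these 4 genes, named for the smallest p of the list, all Vil.Cre Maf.flox libraries were below all controls. Of the 15 genes tested, 5 were lower and 1 higher without overlap between groups, where 10.5% and 10.1% of all genes tested were. Bax and Ccng1, also on the list and named after their values were seen, had values of 0.08 each, and Ccng1 was higher without overlap between groups.

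The summed levels of the further marker lists were 15260 to 34020 CPM in Maf.flox and 15180 to 28880 CPM in Vil.Cre Maf.flox for goblet cells (Fcgbp, Zg16, Clca1 and Tff3 highest). They were 16.6 to 66.7 and 13.8 to 15.1 CPM for tuft cells (Trpm5, Avil, Dclk1 and Rgs13) and 294.5 to 785 and 264 to 518 CPM for enteroendocrine cells (Chgb, Chga, Gcg and Sct). Genes of stroma and vessels summed to 0.427 to 0.885 and 0.385 to 0.998 CPM (Pecam1, Pdgfra, Col3a1 and Col1a2), and erythroid genes to 1.04 to 9.58 and 1.116 to 4.15 CPM (Hbb-bs, Hba-a1, Hbb-bt and Alas2). No marker was at 0 in every library.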
